A study of Mus musculus with 6 samples.

Results

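The macrophage and dendritic cell genes Ctss, Mpeg1, Cd209a, Lyz1, Lcp1 and Cd83 were followed in uterine RNA of mice with and without deletion of Stat3. They were chosen by gene symbol, with earlier results of these data known. Every probe set that the platform annotation gives to them alone was kept. These were 8 probe sets of the 1382 in the deposited table, or 6 of its 987 named genes. Female mice at 3.5 days post coitum, before implantation, contributed 3 arrays of Stat3 d/d uteri, which carry deleted Stat3 alleles, and 3 arrays of Stat3 f/f uteri, in which the floxed alleles are intact. Whole uterine tissue was used for RNA on Affymetrix expression arrays. The sources used here do not name the Cre driver, the strain, the age of the mice or any pooling, and nothing says that each array is a separate animal. The p-values therefore reflect array-to-array spread alone, which could be technical.

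Macrophages and dendritic cells are resident phagocytes of the uterus. They take up debris and foreign material, digest proteins in lysosomes and load the peptides on MHC class II molecules for display to T cells. Ctss encodes cathepsin S, the cysteine protease that trims the invariant chain off MHC class II. Lyz1 encodes a lysozyme, an enzyme that cleaves bacterial cell walls; in the mouse it is the form made by Paneth cells of the gut, while its neighbour Lyz2 is the form of macrophages. Mpeg1 encodes perforin-2, a pore-forming protein of phagocytes. Cd209a is a mouse homologue of DC-SIGN, a C-type lectin carried by some dendritic cells. Cd83 is an immunoglobulin-family surface protein of mature dendritic cells and other activated leukocytes, and Lcp1, or L-plastin, bundles actin filaments in leukocytes of every lineage.

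The start regions of Ctss, Lyz1 and Lyz2 are shown because Ctss had the largest change of the 6 genes, and because Lyz1 and Lyz2 are neighbouring lysozyme genes. The probe sets named for Lyz1 carry the suffix x, the Affymetrix mark for probes that may also bind related transcripts. The sequences are RefSeq's on GRCm38.p6, 5′ to 3′ along each gene's strand, and each run holds the 100 bases that end at the base before the annotated start. Capitals mark the core of the interferon-stimulated response element (ISRE), searched as GAAA, any 2 bases, GAAA.
Ctss, chr3:95526686-95526785, plus strand: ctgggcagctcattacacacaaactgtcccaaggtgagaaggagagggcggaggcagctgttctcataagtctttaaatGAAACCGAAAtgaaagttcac
Lyz1, chr10:117292869-117292968, minus strand: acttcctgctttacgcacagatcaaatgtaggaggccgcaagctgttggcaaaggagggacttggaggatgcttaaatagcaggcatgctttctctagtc
Lyz2, chr10:117282273-117282372, minus strand: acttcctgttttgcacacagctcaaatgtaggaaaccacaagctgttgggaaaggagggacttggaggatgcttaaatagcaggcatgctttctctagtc

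The Ctss match lies 12 to 21 bases before the start. Set base by base without gaps, the Lyz1 and Lyz2 stretches were identical at 92 of 100 positions, and over 250 bases before the start at 152 (60.8%). These stretches lie before the transcripts and do not show how alike the transcripts are. RefSeq's table holds start windows (250 bases before to 50 after the start) for 5 of the 6 genes, 6 windows in all, since Lcp1 has a pair of starts. Cd83 has no entry there. Windows were searched on both strands for the ISRE core, for GAGGAA (the core bound by the myeloid factor PU.1) and for TTCNNNGAA (the core bound by STAT factors). The motifs can share bases, but no match found in these windows overlapped another. Ctss held the ISRE match and 2 GAGGAA matches, and the windows of Mpeg1, Cd209a, Lyz1 and Lcp1 held none of the 3 motifs. Among all 32851 windows of the table, 3.44% hold the ISRE core, 28.3% hold GAGGAA and 8.30% hold TTCNNNGAA. A match describes letters only and is not evidence of a bound site.

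The deposited table had been selected on the comparison of the groups. Every probe set in it differs at least 1.5-fold between group means, none has overlapping groups, and 100% pass an adjusted p of 0.05 (limma, Benjamini-Hochberg over the 1382 probe sets). Of all probe sets, 67.4% were higher in Stat3 d/d, with a median log2 change over the table of 0.70. A pass by any of the 6 genes, or a gap between its groups, therefore adds nothing by itself. What follows is about sizes, spread and the order of the arrays. Selection of this kind also favours large changes and small spread within groups, and limma was fitted to the selected probe sets alone. The changes below may therefore be too large, and their standard errors, intervals and p-values too small. Stat3 itself, on its brighter probe set, averaged 118 ± 14.9 in Stat3 d/d and 287 ± 60.8 in Stat3 f/f (intensity, SD, n = 3 each).

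All 6 genes were higher in Stat3 d/d uteri on every probe set, between 1.98-fold (Cd209a) and 3.59-fold (Ctss) by the ratio of mean intensities. Their median log2 change was 1.12, against 0.70 over all 987 genes, 327 of them lower, and 0.92 over the 660 genes that were higher. As the 6 genes were chosen with earlier results known, a median above these values adds nothing by itself. In bulk tissue, more cells of a type and more RNA per cell cannot be told apart.

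**Figure D1:**
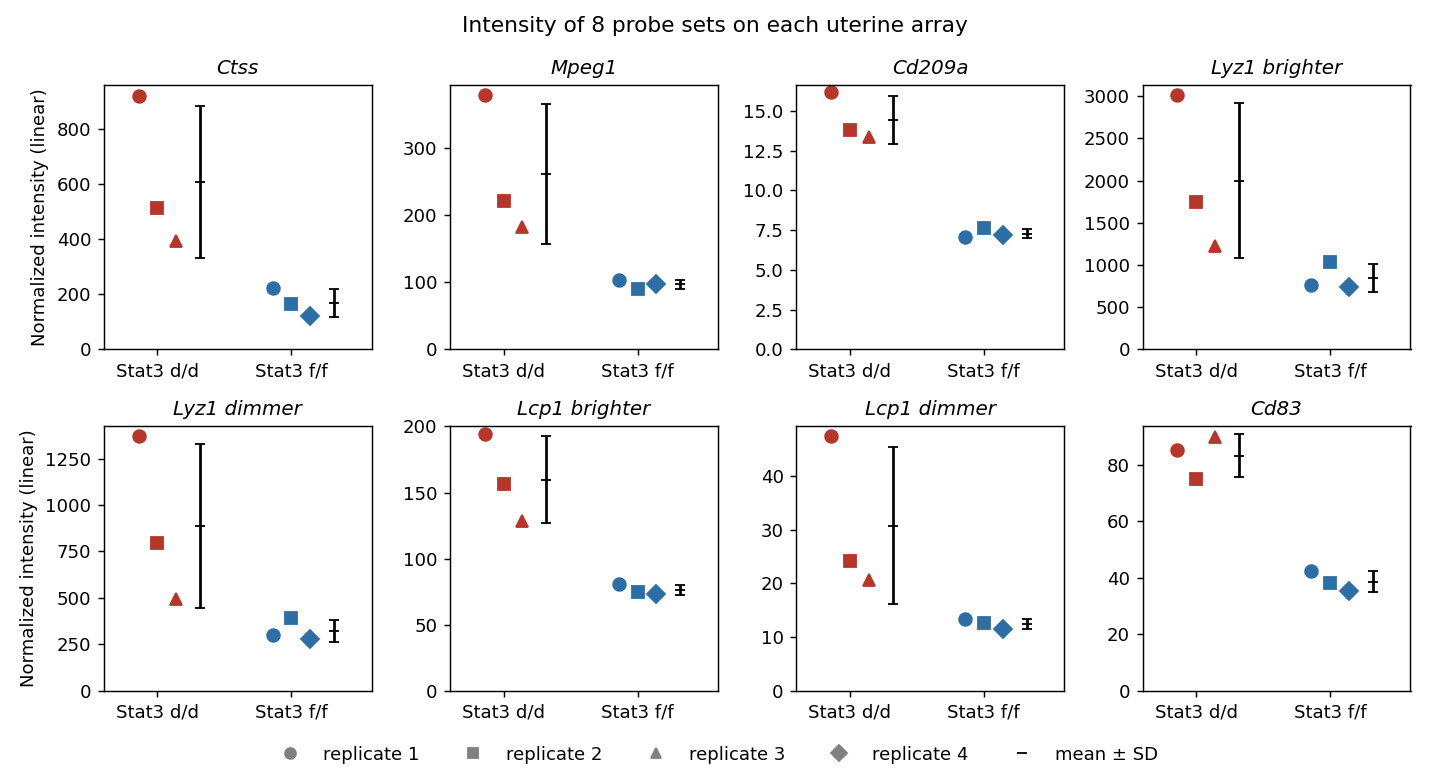
Normalized intensity (linear axes starting at 0) of the 8 probe sets on the 3 Stat3 d/d and 3 Stat3 f/f arrays, with marker shape for the replicate number and the mean ± SD beside each group. Stat3 d/d replicate 1 is the highest point for every probe set except that of Cd83.

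Among the lysosomal and bactericidal products, Ctss read 921, 514 and 394 in Stat3 d/d replicates 1, 2 and 3, against 223, 166 and 120 in Stat3 f/f replicates 1, 2 and 4. The lowest Stat3 d/d array was 1.77 times the highest Stat3 f/f array, and replicate 1 stood far above the other Stat3 d/d arrays. The log2 change was 1.79 (SE 0.31, 95% interval 1.10 to 2.49, adjusted p = 0.000689 in limma), the largest of the 6 genes. It was at least as large as those of 88.2% of the higher probe sets of the table.

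Mpeg1, the pore-forming gene, read 379, 220 and 183 in Stat3 d/d replicates 1, 2 and 3, against 103, 90.0 and 97.0 in Stat3 f/f replicates 1, 2 and 4. The Stat3 f/f arrays lay within a narrow band, with a coefficient of variation of 6.70%, and the Stat3 d/d arrays were spread over 40.1%. The log2 change was 1.35 (SE 0.25, 95% interval 0.80 to 1.91, adjusted p = 0.000895 in limma).

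Lyz1 was the brightest of the 6 genes. Its brighter probe set read 3017, 1750 and 1231 in Stat3 d/d replicates 1, 2 and 3, against 760, 1040 and 740 in Stat3 f/f replicates 1, 2 and 4. The groups came closest here: Stat3 d/d replicate 3 was only 1.18 times Stat3 f/f replicate 2. The log2 change was 1.16 (SE 0.29, 95% interval 0.50 to 1.81, adjusted p = 0.00412 in limma), and the call was lost when each array was centred on its median in the table (adjusted p = 0.0615). The dimmer probe set read 1369, 798 and 495 in Stat3 d/d, against 298, 389 and 277 in Stat3 f/f, in the same array order. Its log2 change was 1.36 (SE 0.32, adjusted p = 0.00275 in limma). This probe set kept its call after the same median centring, at a change of 0.89 (adjusted p = 0.0295 in limma). Which share of either signal comes from Lyz2 was not tested, and no probe set named for Lyz2 alone was analysed here.

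Lcp1, the actin-bundling gene, read 194, 156 and 129 in Stat3 d/d replicates 1, 2 and 3, against 80.7, 74.4 and 73.4 in Stat3 f/f replicates 1, 2 and 4, on its brighter probe set. The Stat3 f/f arrays were nearly level, and Stat3 d/d replicate 3 was 1.59 times the highest of them. The log2 change was 1.04 (SE 0.19, 95% interval 0.63 to 1.46, adjusted p = 0.000788 in limma). On the dimmer probe set the readings were 47.6, 24.2 and 20.6 in Stat3 d/d, against 13.3, 12.6 and 11.4 in Stat3 f/f, with a log2 change of 1.15 (SE 0.27, adjusted p = 0.00288 in limma).

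Of the surface proteins linked to dendritic cells, Cd83 read 85.2, 74.9 and 89.9 in Stat3 d/d replicates 1, 2 and 3, against 42.5, 38.2 and 35.3 in Stat3 f/f replicates 1, 2 and 4. Its arrays agreed about equally well in both groups, with coefficients of variation of 9.16% in Stat3 d/d and 9.41% in Stat3 f/f. The log2 change was 1.09 (SE 0.17, 95% interval 0.72 to 1.46, adjusted p = 0.000328 in limma). The lectin Cd209a read 16.2, 13.8 and 13.4 in Stat3 d/d and 7.04, 7.63 and 7.19 in Stat3 f/f, in the same array order. These are dim readings, the lowest intensity in the table being 2.47, with coefficients of variation of 10.5% in Stat3 d/d and 4.21% in Stat3 f/f. The log2 change was 0.89 (SE 0.16, 95% interval 0.54 to 1.25, adjusted p = 0.000791 in limma), and 0.98 without the pseudocount of 1.

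The intervals of all 8 probe sets overlapped each other, so no order among their changes is given beyond the values. The changes also depend on how arrays are scaled. After each array was centred on its median in the table, the median change over the table was 0.24, and 30.5% of probe sets were higher past the threshold. With that scaling the changes became 1.32 for Ctss, 0.89 for Mpeg1, 0.43 for Cd209a, 0.69 for Lyz1, 0.57 for Lcp1 and 0.62 for Cd83, each on the brightest probe set. After quantile normalization, where 31.5% of probe sets were higher past the threshold, all 8 probe sets kept their limma calls, with Cd209a nearest to losing it (adjusted p = 0.0483). A table selected in this way cannot show which scaling is the better. If the adjustment assumes 45000 tests, roughly a whole array, both probe sets of Lyz1 (adjusted p = 0.134 and 0.0896) and the dimmer one of Lcp1 (0.0939) lost their limma calls, at a background of 28.0% of probe sets still called higher.

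**Figure D2:**
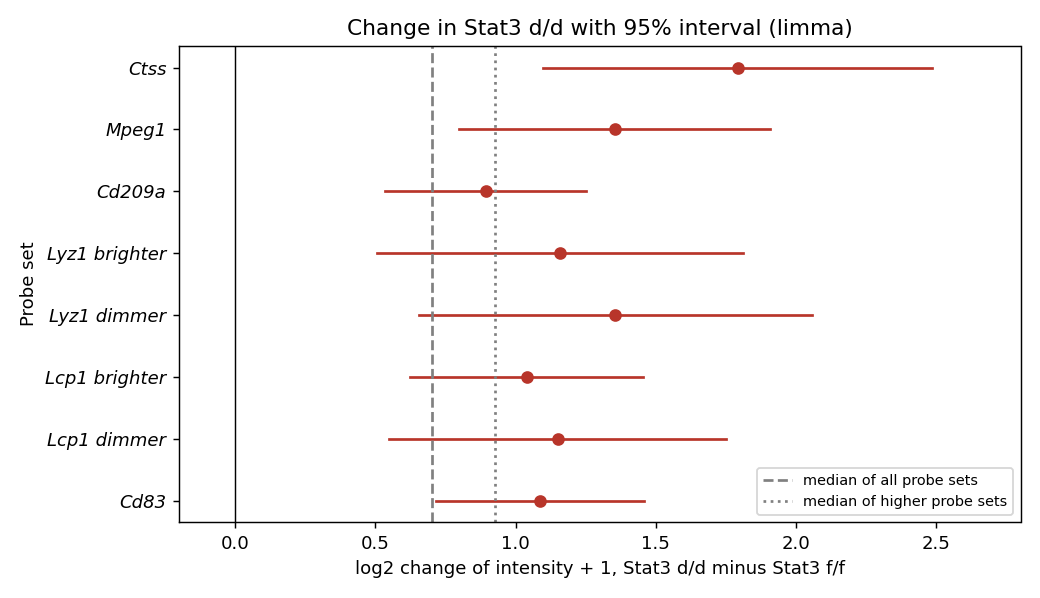
The log2 change of intensity + 1, Stat3 d/d minus Stat3 f/f, of each probe set (points) with its 95% interval (lines) from limma over the whole table. Ctss is farthest right at 1.79 and Cd209a farthest left at 0.89; dashed and dotted lines give the medians of all probe sets (0.70) and of the higher ones (0.93).

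The next comparison set genes with a clear signal in the Stat3 f/f uterus beside those that were dim there. A probe set was called dim where its Stat3 f/f mean lay below the median of such means in the table, 24.9, and resident-level otherwise. By this split 6 probe sets were resident-level, covering Ctss, Mpeg1, Lyz1, Cd83 and the brighter Lcp1, with Stat3 d/d means from 83.3 to 1999.5 and Stat3 f/f means from 38.7 to 847. The dim ones were Cd209a, at 14.4 ± 1.51 in Stat3 d/d and 7.29 ± 0.31 in Stat3 f/f, and the dimmer Lcp1 probe set, at 30.8 ± 14.6 in Stat3 d/d and 12.5 ± 0.96 in Stat3 f/f (SD, n = 3 each). Nearest to the dividing value stood this Lcp1 probe set below it and Cd83, with a Stat3 f/f mean of 38.7, above it. As Lcp1 has a probe set on each side, the split ranks probe sets by brightness and does not rank the genes by transcript level.

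On the log2 scale the classes were close. The dim probe sets changed by 0.89 and 1.15 and the resident-level ones by 1.04 to 1.79, with medians of 1.02 and 1.26. Without the pseudocount, which presses down dim values, the dim probe sets changed by 0.98 and 1.21 and the resident-level ones by 1.05 to 1.80. In added signal they were far apart: the rise in mean intensity was 7.15 for Cd209a and 18.4 for the dimmer Lcp1 probe set, against 44.6 for Cd83, 440 for Ctss and 1153 for the brighter Lyz1 probe set. Splitting by the mean over all 6 arrays gave the same classes. Because the split uses the Stat3 f/f level, which is also the base of each change, no test was made. Over the whole table the classes of the higher probe sets were also close, with median changes of 0.91 for the 558 dim and 0.96 for the 373 resident-level ones; without the pseudocount these medians were 0.99 and 0.97, in the opposite order.

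**Figure D3:**
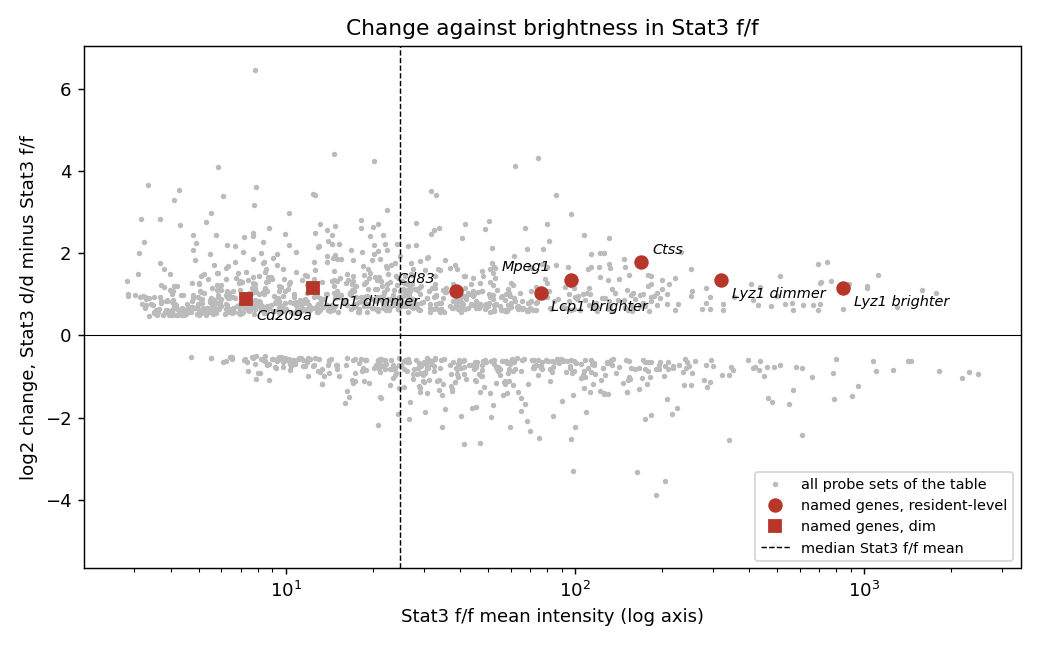
Mean intensity in Stat3 f/f (log axis) against the log2 change, Stat3 d/d minus Stat3 f/f, for every probe set of the table (grey) and the 8 named probe sets (red, squares dim and circles resident-level). The named probe sets run from 0.89 to 1.79 across the range of brightness, and the empty band around 0 comes from the selection of the table.

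The paired probe sets of Lyz1 and Lcp1 gave a check within each array, as a constant factor per array cancels in their ratio. An adjustment that depends on intensity, such as quantile normalization, need not cancel. The log2 ratio of the brighter to the dimmer Lyz1 probe set was 1.14, 1.13 and 1.31 in Stat3 d/d replicates 1, 2 and 3, against 1.35, 1.42 and 1.42 in Stat3 f/f replicates 1, 2 and 4. The groups did not overlap on this ratio (exact permutation test, two-sided, p = 0.10, the smallest that 3 against 3 can give), with a difference of -0.20, Stat3 d/d minus Stat3 f/f. For Lcp1 the ratio was 2.03, 2.69 and 2.64 in Stat3 d/d, against 2.60, 2.56 and 2.68 in Stat3 f/f (exact permutation test, two-sided, p = 0.90). Only Stat3 d/d replicate 1 stood away from the other 5 arrays there.

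The spread within Stat3 d/d was wide for some of these genes. On the brightest probe set of each gene, the coefficient of variation there was 46.0% for Lyz1, 45.3% for Ctss and 40.1% for Mpeg1. It was 20.6% for Lcp1, 10.5% for Cd209a and 9.16% for Cd83. Counts over the 8 probe sets include both probe sets of Lyz1 and both of Lcp1. The median coefficient of variation over the 8 probe sets was 42.7% in Stat3 d/d and 8.55% in Stat3 f/f, and 7 of the 8 varied more in Stat3 d/d. Over all 1382 probe sets the medians were 12.5% in Stat3 d/d and 16.5% in Stat3 f/f, and 530 varied more in Stat3 d/d. The arrays also ranked alike. Stat3 d/d replicate 1 was the highest, replicate 2 next and replicate 3 the lowest for 7 of the 8 probe sets (87.5%). This order was found in 23.6% of the 931 higher probe sets. By gene, on the brightest probe set, 5 of the 6 had it (83.3%), against 23.8% of the 660 higher genes. Ctss in replicate 1 was 2.34 times its level in replicate 3, Mpeg1 2.08 times, the brighter Lyz1 2.45 times and Lcp1 1.51 times. For Cd209a this ratio was 1.21, and Cd83 departed from the order at 0.948. In Stat3 f/f, replicate 4 was the lowest array for 6 of the 8 probe sets, as for 41.1% of the higher probe sets of the table.

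**Figure D4:**
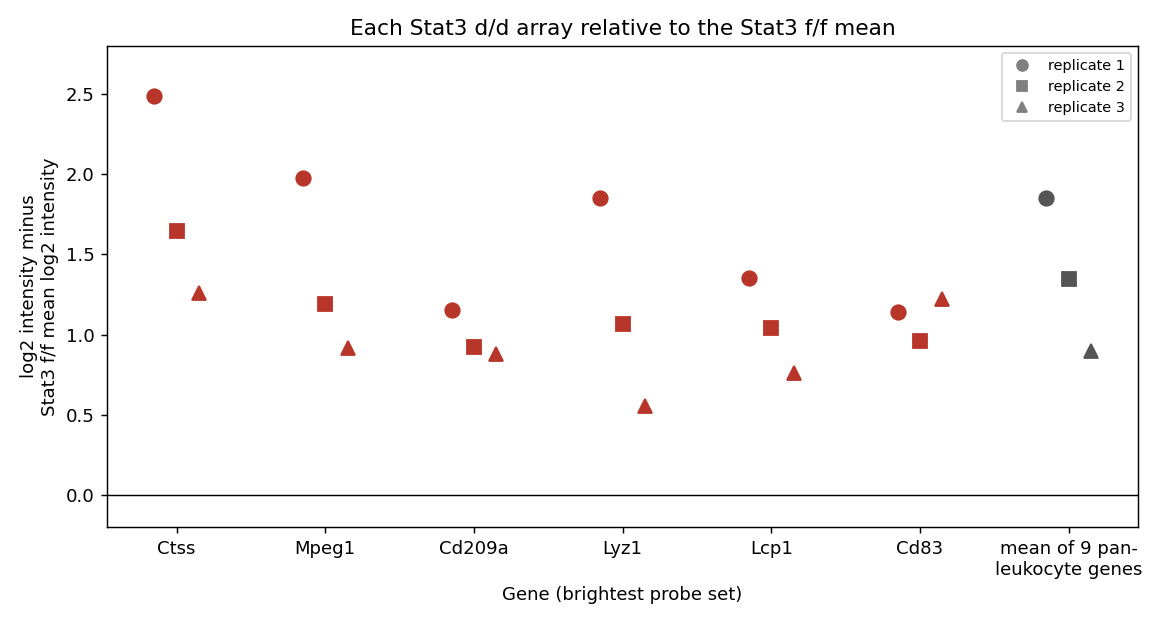
Log2 intensity of each Stat3 d/d array minus the mean log2 intensity of the 3 Stat3 f/f arrays (vertical axis), by gene on its brightest probe set, with the mean of 9 pan-leukocyte genes in grey. Replicate 1 lies on top for 5 of the 6 genes and for the pan-leukocyte mean, while the Cd83 arrays lie close together.

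Without Stat3 d/d replicate 1 every change stayed above 0 and past the limma threshold. The values were 1.45 for Ctss, 1.05 for Mpeg1, 0.82 for Cd209a, 0.81 for the brighter Lyz1 probe set, 0.89 for the brighter Lcp1 probe set and 1.07 for Cd83. The adjusted p-values of these fits ran from 0.00195 for Cd83 to 0.0126 for Lyz1. Across the table, the median change moved little, to 0.69. Of all 1382 probe sets, 904 were higher past the threshold in that fit and 443 lower. As the table was selected on these same arrays, the kept calls add nothing by themselves. After group means were removed, the log2 values of the other 5 genes correlated with each other across the 6 arrays at r from 0.704 (Ctss with Cd209a) to 0.965 (Cd209a with Lyz1). Cd83 correlated with them at r from -0.112 (Lyz1) to 0.360 (Ctss). These points share arrays and normalization, and 6 arrays limit them, so the values are descriptions.

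Genes listed here as pan-leukocyte ranked the arrays in the same way. Not every leukocyte carries each of them, Fcer1g being an example, and macrophages carry genes of this list too. Of 10 pan-leukocyte genes listed, 9 were in the table, all higher, with a median log2 change of 1.39, and all 9 put Stat3 d/d replicate 1 first, 2 second and 3 last. Ptprc, the phosphatase CD45 of all leukocytes, read 420, 321 and 270 in Stat3 d/d replicates 1, 2 and 3, against 145, 107 and 81.6 in Stat3 f/f replicates 1, 2 and 4. The summed intensity of the 9 genes ran from 1084 to 1924 in Stat3 d/d and from 423 to 676 in Stat3 f/f. Their part in the changes of the 6 genes was not tested.

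Set against the mean log2 intensity of those 9 genes within each array, the groups of 7 of the 8 probe sets overlapped. Ctss had a log2 ratio 0.43 higher in Stat3 d/d, at 2.51 ± 0.18 in Stat3 d/d and 2.08 ± 0.16 in Stat3 f/f (SD, n = 3 each), with groups that did not overlap. On the same ratio 5.32% of the 1373 probe sets outside that mean were higher in Stat3 d/d without overlap. The ratio of Mpeg1 differed by -0.0034, and that of the dimmer Lyz1 probe set by -0.0073. The differences, Stat3 d/d minus Stat3 f/f, were -0.38 for Cd209a, -0.32 for the brighter Lcp1 probe set, -0.26 for Cd83 and -0.21 for the brighter Lyz1 probe set. None of the 8 ratios passed an exact permutation test, two-sided (smallest p = 0.10 for Ctss, 0.533 after Benjamini-Hochberg adjustment over the 8), which 3 against 3 cannot take below 0.10. A ratio of this kind shows unequal change only, and does not show which of the parts changed. The 9 genes of the base passed the same selection of the table as the 8 probe sets, and all 9 were higher. An overlap of groups or a ratio difference near 0 therefore adds nothing by itself.

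**Figure D5:**
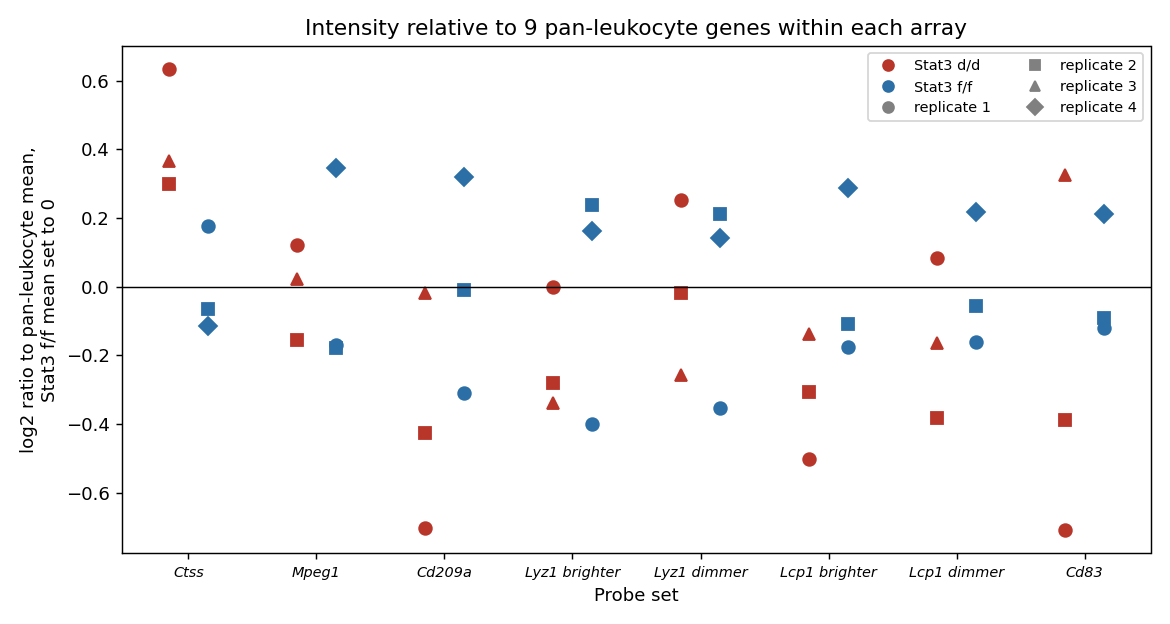
Log2 ratio of each probe set to the mean of 9 pan-leukocyte genes on the same array (vertical axis), shifted so that the Stat3 f/f mean is 0, with Stat3 d/d in red left of Stat3 f/f in blue. Only the Ctss groups are apart, by 0.43; for the other probe sets the groups overlap.

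Other genes of these cells were read from lists of which the table holds only a part, and a listed gene missing from it was not analysed here. Of 27 macrophage identity genes 4 were present and all 4 rose, at a background of 66.9% of all genes higher. Aif1, the actin-binding protein Iba1, rose by 1.25 (SE 0.30), Adgre1, the F4/80 antigen, by 1.08 (SE 0.28), Fcgr1, the high-affinity IgG receptor, by 0.96 (SE 0.25), and Lyve1, a hyaluronan receptor of lymphatic vessels and some macrophages, by 0.82 (SE 0.22). Their summed intensity was 288 to 392 in Stat3 d/d and 125 to 204 in Stat3 f/f. Lyve1 did not share the array order: replicate 1 was its lowest Stat3 d/d array, at 95.7 against 126 and 124 in replicates 2 and 3. The defining genes Csf1r, Cd68, Mertk, C1qa and Lyz2 were not among the 4.

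Of 8 monocyte genes, Ccr2, the chemokine receptor that brings monocytes out of the marrow, and Ms4a4c rose, by 1.25 (SE 0.31) and 0.61 (SE 0.19). Of 20 dendritic cell genes, Itgax, the integrin CD11c, rose by 1.52 (SE 0.18), and Irf8, a transcription factor needed for dendritic cell development, by 0.87 (SE 0.19). Itgax was even across the Stat3 d/d arrays, at 19.4, 18.4 and 17.3, against 4.56, 6.42 and 6.43 in Stat3 f/f. Of 6 genes listed under costimulation only Cd274 was present, with a rise of 1.72 (SE 0.18). It encodes PD-L1, an inhibitory ligand, so its rise does not describe costimulation. Its readings were dim, at 17.8, 23.1 and 21.9 in Stat3 d/d, against 4.64, 6.14 and 6.19 in Stat3 f/f. Of 10 MHC class II genes only H2-Aa was present, at 61.9, 51.2 and 23.3 in Stat3 d/d, against 21.6, 15.5 and 12.0 in Stat3 f/f. Its probe set also carries the suffix x. Of the 10 genes in these 5 lists, 5 were higher past the threshold after median centring (30.5% of all probe sets), 4 after quantile normalization (31.5%) and 2 with 45000 assumed tests (28.0%).

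Counts of genes that rose stand against a background of 66.9% of all genes higher. Among genes related to the 6 by function, 2 of 16 lysosomal protease genes were in the table and both rose. Cathepsin D, Ctsd, rose by 1.21 (SE 0.28) and was even across Stat3 d/d, at 2433, 2053 and 2239, against 1211, 1287 and 576 in Stat3 f/f. Ctsw, a cathepsin of natural killer and cytotoxic T cells, rose by 1.08 (SE 0.19). Of 12 actin regulators 4 were in the table and all rose, among them the integrin activator Fermt3 (kindlin-3) by 1.04 (SE 0.22), the coronin Coro1a by 0.95 (SE 0.23) and the exchange factor Vav1 by 0.62 (SE 0.18). Of 14 C-type lectin and scavenger receptors, Clec4a3 and Clec7a (dectin-1, a receptor for fungal glucans) rose, by 1.48 (SE 0.31) and 1.06 (SE 0.27).

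Markers of other cells moved too. Of 26 T and NK cell genes 11 were in the table, 10 higher and 1 lower, with a median log2 change of 1.36. Their summed intensity was 693 to 867 in Stat3 d/d and 505 to 645 in Stat3 f/f, and without Thy1, the gene that fell, it was 391 to 598 in Stat3 d/d and 95.5 to 158 in Stat3 f/f. The natural killer genes Klra8, Klrd1, Eomes and Il2rb rose by 3.52, 2.20, 1.40 and 1.36. The Klra8 probe set carries the suffix x. It read 46.6, 94.0 and 48.3 in Stat3 d/d, against 4.18, 4.52 and 4.12 in Stat3 f/f, near the lowest intensity in the table (2.47). Thy1, carried by T cells and also by stromal cells, fell by 0.76 on the log2 scale. The B cell gene Ighm, the only 1 of 10 present, read 49.6, 41.5 and 28.7 in Stat3 d/d and 21.9, 25.1 and 15.9 in Stat3 f/f. None of 13 neutrophil, 12 eosinophil and mast cell or 5 Paneth-cell genes was in the table. Of 11 epithelial genes, the claudins Cldn3 and Cldn4 rose by 0.74 and 0.68, and of 16 stromal, muscle and vessel genes only Dcn was present, at a log2 change of -1.06. The labelled tissue could be checked against these few genes only.

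The genes most like each of the 6 were sought among the 981 other named genes, by Pearson's r of log2 values over the 6 arrays. For Ctss they were Gimap9, Runx3 and Ms4a6c, for Mpeg1 Atp2c2, Gpr65 and Ms4a7, and for Lyz1 Nckap1l, Myo1f and Cxcr3. For Lcp1 they were H2-D1, Gpr65 and Ccl5. Cd209a was closest to Il15, AI506816 and Tnfaip3, and Cd83 to Ablim1, Hpgds and Ifi44l. All 18 values of r were 0.989 or above. Such values are easily reached where every gene separates the groups: r passed 0.95 for 28 genes with Lyz1 and for 184 with Cd83.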

How the data were processed

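Per the submitters' processing notes, the arrays were processed with RMA (robust multi-array average: background correction, quantile normalization and a summary per probe set), without a version. The deposited intensities run linearly from 2.47 to 4352, one per probe set, while RMA gives log2 values; the authors' step between them is not recorded in the labels. The sources used here give no genome build, annotation or rule of selection for the table. Arrays have no read depth; their number limits the precision. The platform annotation gave 1 symbol to 1191 probe sets, several to 57 and none to 134, and 0 probe sets with several symbols list any of the 6 genes. Of its identifiers 1186 matched the RefSeq table of GRCm38.p6, which changed 0 symbols.

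Intensities were taken as log2(intensity + 1), and the groups were compared (Stat3 d/d minus Stat3 f/f) over all 1382 probe sets by lmFit and eBayes of limma 3.58.1 (R 4.3.3, Benjamini-Hochberg adjustment, threshold 0.05), a fit checked on simulated data. Per-gene counts and lists use the probe set with the highest mean over 6 arrays. Groups come from the source names and replicate numbers from the titles. Members, lists and tests were chosen with earlier results of these data known. Genes named from the 16 lists are up to 4 per list with the smallest adjusted p (Thy1, the member that fell, was added after its value was seen), and those most like a member are its 3 highest r. The array order, the spread within groups, the pan-leukocyte mean as a base and the per-array values of Lyve1, Itgax and Ctsd were chosen after the values were seen. Alternatives were other pseudocounts (none and 16), quantile normalization, median centring, an intensity-dependent or unmoderated variance, array weights, dropping the dimmest 25% of probe sets, the omission of single arrays, a replicate block, 45000 assumed tests and averaging the probe sets of each gene. Ratios within arrays were tested by exact permutation.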

Additional observations from a re-analysis of the deposited data

How the results depend on the processing

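All 6 genes stayed higher in Stat3 d/d under every alternative that gave a value, and 5 or 6 of them kept their limma call. Most alternatives kept nearly every call of this selected table. Without a pseudocount, or with array weights, 931 of all 1382 probe sets were called higher and 451 lower. The fewest called higher were 387, with 45000 assumed tests. Leaving out each array in turn gave 6 genes and 8 probe sets past the threshold each time. All 10 genes of the macrophage, monocyte, dendritic cell, costimulation and MHC class II lists were also called higher. Those fits called 904 to 927 of all 1382 probe sets higher and 438 to 450 lower. The selection of the table thus nearly fixed these counts in advance. The median log2 change of the 6 genes was 0.97 to 1.32 (1.12 with all arrays). The difference between dim and resident-level probe sets was -0.35 to -0.17 (-0.23 with all arrays). The median change of the 6 genes was 0.67 after quantile normalization and 0.66 after median centring, as both scalings lower the changes of all 1382 probe sets of this table. With 45000 assumed tests 5 of the 8 probe sets and 2 of the 10 genes from those 5 lists passed (28.0% of all probe sets). For these 10 listed genes the count was 4 after quantile normalization (31.5%) and 5 after median centring (30.5%). With a pseudocount of 16 the difference between dim and resident-level probe sets was -0.66, since it presses down dim values most, and Cd209a changed by 0.39. Cd209a gave no value without the dimmest probe sets. With the replicate number as a block, which only numbers 1 and 2 allow, Ctss changed by 1.83 and the median was 1.26; the block ended no call among the 8 probe sets. Same-numbered arrays deviated together at r = 0.0878 and 0.0284, so the numbers are not taken to pair the samples. Alternatives for the 10 listed genes and for the split by brightness, other than splitting by the mean over all 6 arrays, were chosen after seeing the data.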
